A study of Mus musculus with 4 samples.

Results

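The sites described here are 4464 wild-type peaks of topoisomerase IIα (TopoIIa) activity that stood in dense neighbourhoods and had no called counterpart after loss of Brg1. They were chosen from the wild-type peak list of mouse embryonic stem (ES) cells on chromosomes 1 to 19. Sorted peaks were linked into a chain when the gap to the end of the previous peak was at most 50 kb, and chains of 5 or more peaks were kept. The members are the peaks of these chains with a score below 400, a width of at most 5000 bp and no overlap of 1 bp or more with a knockout peak. They make up 26.9% of all 16591 wild-type peaks and 27.9% of the 16012 on chromosomes 1 to 19. Because gap, score, width and overlap chose the members, these values describe them and are no evidence about them.

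The study captured TopoIIa bound covalently to DNA by chromatin immunoprecipitation from one ES cell line. In both groups the line was derived from Brg1f/f-actinCreER mice, expressed V5-tagged human TopoIIa from an introduced construct and carried a knockdown of the mouse enzyme. The wild-type group received ethanol and the Brg1-/- group tamoxifen, which activates the Cre recombinase, for 24 h, followed by 48 h in ES cell medium. Both then received 100 µM etoposide for 10 min, and complexes were isolated with an anti-V5 antibody. There was 1 V5 library per genotype, so the values below carry no replicate error and the genotypes were compared without a p-value. Only the peak lists were used and they do not give sequencing depth, and neither peak list measures Brg1 or an ES cell marker. A site without a knockout peak is therefore one not called in that library, and dependence on Brg1 was not measured.

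TopoIIa cuts both strands of one DNA duplex, passes another duplex through the break and reseals it. The cell relies on it to untangle replicated chromosomes and to relieve supercoiling. Etoposide blocks resealing, so enzyme at work stays covalently attached to the DNA. Brg1 is the ATPase of the BAF (mSWI/SNF) complexes, which move and evict nucleosomes, and the study asked whether these complexes help TopoIIa act on chromatin.

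The dense neighbourhoods were many and mostly short, with a few long ones. There were 469 chains, which held 4933 peaks (30.8% of the wild-type peaks on these chromosomes). The median chain had 7 peaks (interquartile range 6 to 11) over 121 kb (84.8 to 182 kb), and the longest had 97 peaks over 958 kb. Chains of 5 to 9 peaks were the most common (309 chains, 1808 members), followed by chains of 10 to 19 (117 chains, 1383 members). The 43 chains of 20 or more peaks held 1273 members (28.5%). Of all chain peaks, 4504 met the score and width limits, and 4464 of these had no knockout peak. For comparison, 95.4% of all wild-type peaks on chromosomes 1 to 19 had none, a contrast that the choice of members used. In 241 chains every peak was a member. At least one peak scored 400 or more in 175 chains, and 294 chains had no such peak.

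Spacing inside chains was much tighter than the 50 kb limit. The median gap between neighbouring peaks was 8.92 kb (interquartile range 3.01 to 20.1 kb), 53.6% of the 4464 gaps were under 10 kb, and 518 (11.6%) were under 1 kb. That there were as many gaps as members is a coincidence, since 469 chain peaks failed a limit and there were 469 chains. Longer chains were also tighter. The median gap was 12.2 kb in chains of 5 to 9 peaks, 9.28 kb in those of 10 to 19 and 6.12 kb in those of 20 or more. Wild-type peaks covered 15.3%, 17.3% and 23.9% of the span in these 3 classes. The limit itself fell in a smooth part of the gap distribution, with 329 gaps of 45 to 50 kb and 317 of 50 to 55 kb between wild-type peaks. Just below the size limit, 198 groups of exactly 4 peaks were left out, beside 117 chains of exactly 5 that were kept.

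The chain with most members lay on chromosome 10 from 78995041 to 79953245 (mm9). It held 97 wild-type peaks with a median gap of 4.36 kb, and 87 of them were members. Member scores there ran from 50.09 to 386.67 around a median of 106.47. Its strongest member, from 79074168 to 79077663, was 439 kb from the nearest knockout peak, and its weakest, from 79166898 to 79168173, was 348 kb from one. A single knockout peak lay in the whole 958 kb, on 1 wild-type peak. A stretch of this length would hold 1.65 on average at the density outside chain spans, so the difference is small. The chain was thus a run of weak, moderate and strong sites side by side.

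The next chain, on chromosome 8 from 72497175 to 73453842, held 92 peaks over 957 kb, of which 75 were members with scores from 51.12 to 399.97 (median 119.98). This span held 5 knockout peaks, where the density outside chain spans would give 1.64 on average, and 2 wild-type peaks overlapped one. Its strongest member, from 72874653 to 72878071, was 130 kb from the nearest knockout peak. Another chain on chromosome 10, from 80447518 to 81098394, had 59 members among 70 peaks, the tightest spacing of the 5 biggest chains (median gap 2.51 kb) and no knockout peak in 651 kb. Its members were weaker, from 50.48 to 259.99 (median 92.6). A chain on chromosome 8 from 122583779 to 123198408 also had no knockout peak, with 50 members among 62 peaks and scores from 53.56 to 222.3. At the density of knockout peaks outside chain spans, stretches of these lengths would hold 1.12 and 1.06 knockout peaks on average, so their lack of one is a small difference.

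The chain on chromosome 12 from 113669590 to 114603499 stood apart among the 5 biggest. It held 57 members among 73 peaks over 934 kb, and 17 knockout peaks lay in its span, 15 of them on a wild-type peak. Only 2 of the 73 wild-type peaks overlapped a knockout peak, so these 15 shared few sites. Of the 17, 14 belonged to a dense group of knockout peaks. Its strongest member (326.86, from 113915492 to 113919894) was 2.44 kb from a knockout peak, nearer than the strongest members of the other 4 chains.

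**Figure D1:**
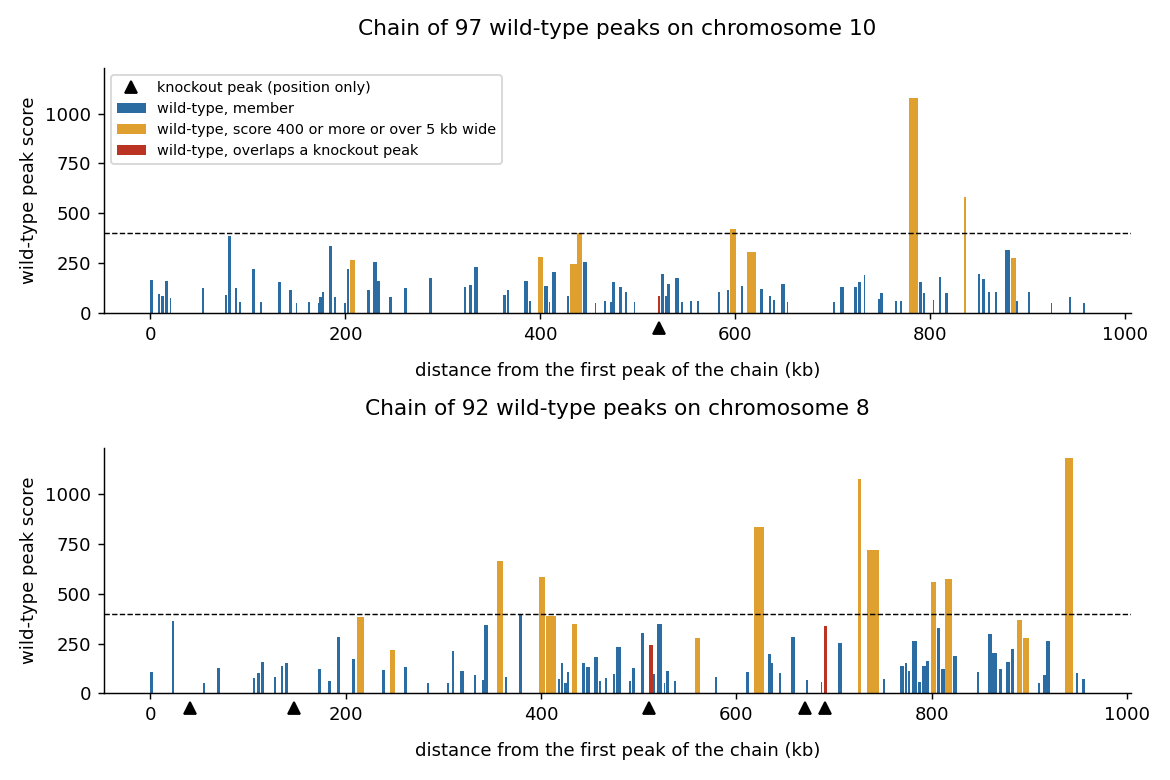
Wild-type peaks of the 2 chains with most members, drawn by distance from the first peak of the chain (kb, x axis) and score (y axis), with bars as wide as the peaks. Triangles mark the knockout peaks, 1 in the upper chain and 5 in the lower one, and the dashed line is the score limit of 400.

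Other kinds of chain were picked out by rule among the 140 with 10 or more members. The smallest median gap, 0.590 kb, belonged to a chain on chromosome 4 from 88402727 to 88453373, where 14 peaks covered 70.5% of 50.6 kb and the nearest other chain was 17841 kb away. Its 13 members scored 60.26 to 226.82. Next in spacing were a chain of 10 members on chromosome 11 from 116081295 to 116210721 (1.46 kb) and one of 10 on chromosome 8 from 4202202 to 4260399 (2.28 kb). The highest median member score, 180.085, belonged to a chain on chromosome 8 from 86096662 to 86282126, with 10 members at a median gap of 10.43 kb. Medians of 146.86 and 145.84 followed on chromosome 6 from 85281459 to 85464255 and on chromosome 4 from 155024673 to 155282111, with 11 members each at median gaps of 16.2 and 19.5 kb. No chain was in both of these lists of 3. The 3 with the tightest spacing had median member scores of 139.31, 112.305 and 78.78, in the order given. The upper quartile of this median over the 140 chains was 109, so the first of them also scored high.

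Chain members had a lower median score than wild-type peaks elsewhere. Weak and strong refer here to the authors' score, which ranks peaks within their list. The members' median score was 90.7 (95% interval of the median 88.8 to 92.6, interquartile range 64.7 to 139). The 9774 wild-type peaks that met the same score, width and overlap limits outside such chains had a median of 100.5 (98.6 to 102.4, interquartile range 68.5 to 162). The share scoring at least 200 was 11.8% (10.8 to 12.7%) among members and 16.2% (15.4 to 16.9%) outside. These intervals reflect only the number of peaks, taken as if each were independent. Among peaks with a neighbour within 50 kb, members had the lower median in each class of nearest gap except 1 to 5 kb. There the medians were 91.7 for 1409 members and 89.2 for 576 peaks outside. The order of scores did not follow group size throughout. The median fell from 104.86 in single peaks to 95.62 in groups of 2 to 4 and 87.28 in chains of 5 to 9, and was higher again in chains of 10 to 19 (90.48) and of 20 or more (97.15). The interval of the longest chains (92.4 to 101) overlapped that of groups of 2 to 4 (93.0 to 97.5).

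**Figure D2:**
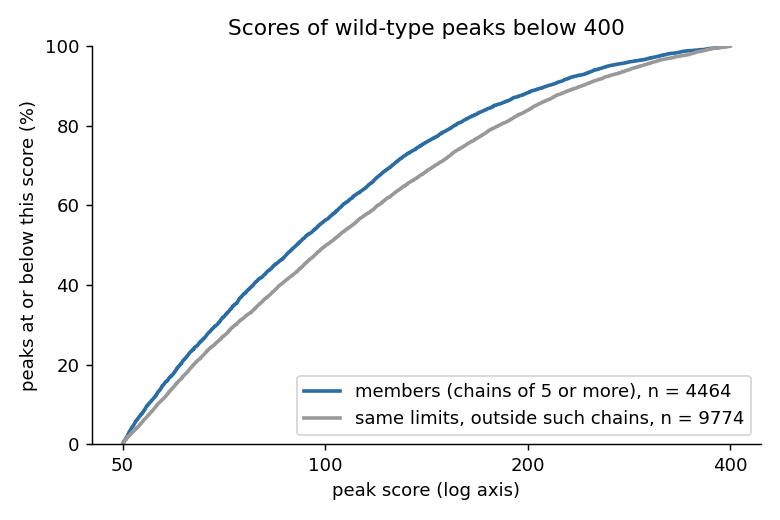
Cumulative share of peaks (%, y axis) by peak score (log x axis) for the 4464 members and for the 9774 wild-type peaks with the same limits outside chains of 5 or more. The curve of the members lies above the other over most of the range, with medians of 90.7 and 100.5.

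Scores varied widely within chains. The median member score of the 140 chains with 10 or more members ran from 63.2 to 180.1, with an interquartile range of 79.9 to 109. Within them, 109 of the 140 held both a member under 60 and one of 200 or more. Neighbouring peaks scarcely resembled each other. In 52.0% (50.5 to 53.4%) of the 4464 adjacent pairs both scores lay on the same side of the chain peaks' median, where unrelated scores would give about 50%, and Spearman's rho between neighbours was 0.04. All pairs come from 1 library. At gaps of up to 5 kb the same-side share was 52.7% and at gaps of 20 to 50 kb it was 50.8%. Place in the chain made little difference. The 847 members at the end of a chain had a median score of 90.6 (86.95 to 96) and the 3617 inner members 90.8 (88.5 to 92.7).

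Members were broader than their counterparts elsewhere, in contrast to their lower scores. Their median width was 2274 bp (2249 to 2295 bp), against 2058 bp (2045 to 2070 bp) for the peaks with the same limits outside chains. The median was larger at every step of group size, from 2030 bp in single peaks through 2095, 2203 and 2274 bp to 2376 bp in chains of 20 or more, although the intervals of chains of 5 to 9 (2175 to 2241 bp) and 10 to 19 (2239 to 2306 bp) just met. At matched score the gap was small among weak peaks and wide among strong ones. In the lowest of 10 score bins (50 to 55.8) the medians were 1726 and 1704 bp, and in the highest (232 to 400) they were 3145 and 2521 bp. Width and score were accordingly more closely tied among members (Spearman's rho 0.72) than outside (0.49).

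The peaks that the width limit removed from the chains followed the same order. Peaks over 5 kb were 0.601% (0.426 to 0.825%) of single peaks, 2.41% of peaks in chains of 5 to 9 and 9.31% (7.88 to 10.9%) of those in chains of 20 or more. Broad peaks were thus a larger part of the longest chains. Members with another peak within 1 kb were 2428 bp wide at the median and those whose nearest peak was 20 to 50 kb away were 2152 bp wide. Peaks with the same limits outside chains had the same order, at 2239 and 2071 bp, so it was not particular to members. Whether the peak caller splits or joins such close peaks is not given in the sources used here.

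Before the overlap limit was applied, peaks in chains had a knockout peak less often than other wild-type peaks, and this held at every wild-type score. Of the 4933 chain peaks, a knockout peak overlapped 52 (1.05%, 0.788 to 1.38% by the exact binomial method). Outside chains 688 of 11079 did (6.21%, 5.77 to 6.68%), and 4.62% did among all wild-type peaks of these chromosomes. The share was lower in larger groups up to 4 peaks and varied without a clear order beyond that. Single peaks were shared in 7.12% of cases (6.50 to 7.78%), pairs in 6.38% (5.50 to 7.36%), groups of 3 in 3.83% (2.83 to 5.06%) and groups of 4 in 2.02% (1.16 to 3.26%). Chains of exactly 5 were at 2.56% (1.44 to 4.19%), within the interval of groups of 4, so the limit of 5 peaks does not mark a break. Chains of 6 to 9 had 6 shared peaks of 1367 (0.439%, 0.161 to 0.953%), so that 15 of the 21 shared peaks in chains of 5 to 9 (1.08%) came from those of exactly 5. Chains of 10 to 19 and of 20 or more had 1.06% (0.607 to 1.72%) and 1.02% (0.572 to 1.68%). The overlap is part of the rule that defines the members, so these shares are descriptions and no test was made.

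The difference was present among weak and strong peaks alike. In each of 10 bins of wild-type score the chain share was the lower one. In the lowest bin 0 of 588 chain peaks were shared, which allows a share of up to 0.510% (3 counts of the total; the exact upper limit is 0.625%), against 1.48% (0.832 to 2.43%) outside. In the highest bin the shares were 3.26% (1.84 to 5.32%) and 14.2% (12.2 to 16.3%). With outside peaks weighted to the score bins of the chain peaks their shared share was 5.75%, and weighted to the chain peaks' chromosomes it was 5.71%. Both stayed far above the 1.05% of the chains.

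The same order held on each of the 19 chromosomes. Outside chains the shared share ran from 4.03% on chromosome 11 to 9.92% on chromosome 18. Inside chains no peak was shared on 4 chromosomes, with 335 chain peaks between them, which allows up to 0.896% (3 counts of the total; the exact upper limit is 1.10%). The highest share was 3.67% (4 of 109) on chromosome 6. Chromosome 8, with the most chain peaks, had 11 of 692 shared (1.59%, 0.796 to 2.83%), against 34 of 606 outside (5.61%, 3.92 to 7.75%). On single chromosomes with few chain peaks the intervals were wide. Chromosome 6, for instance, had 3.67% (1.01 to 9.13%) inside and 6.11% (4.40 to 8.22%) outside, which overlap.

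**Figure D3:**
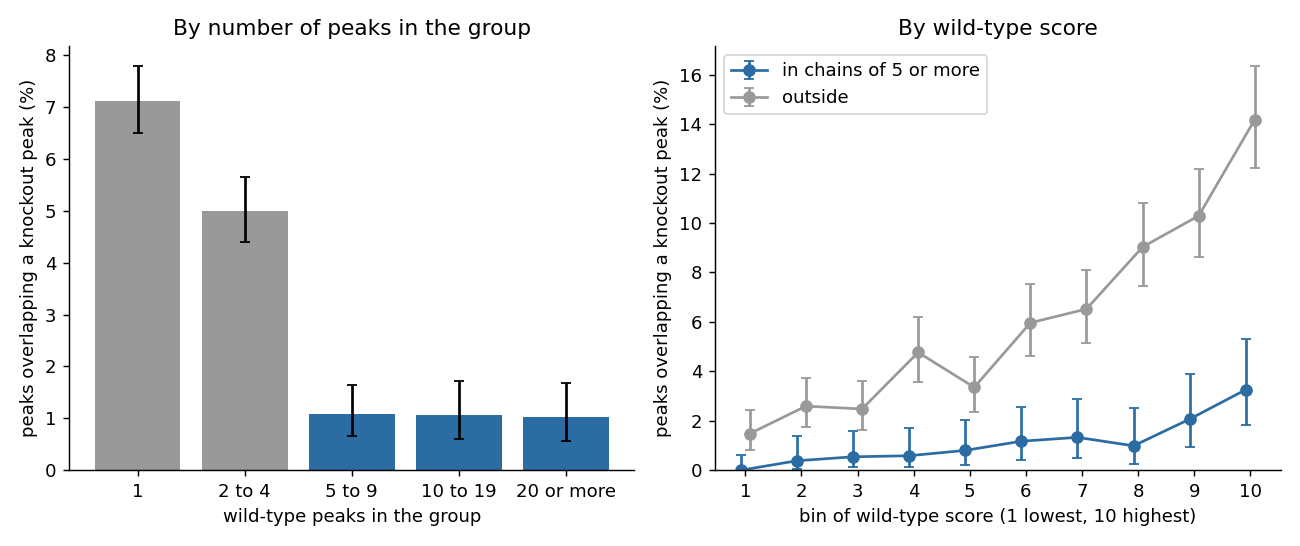
Share of wild-type peaks that overlap a knockout peak (%, y axes), by number of wild-type peaks in the group (left) and by bin of wild-type score in and outside chains of 5 or more (right). Error bars are exact 95% binomial intervals. The 3 classes of chain lie near 1%, and the chain share is below the outside share in all 10 bins.

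Counted by length instead of by peak, knockout peaks were not clearly rarer in the neighbourhoods than elsewhere. Whether they were more frequent depended on dense groups of knockout peaks. Chain spans held 185 knockout peak centres in 72.8 Mb, or 2.54 per Mb (exact Poisson 95% interval 2.19 to 2.93), against 1.72 (1.66 to 1.77) outside. Of the 185, 73 belonged to 2 dense groups of knockout peaks, 59 of them inside a single broad wild-type peak of a 5-peak chain on chromosome 8 from 126000685 to 126149272 and 14 in the chain on chromosome 12 described above. Without the dense groups the densities were 1.54 (1.27 to 1.85) and 1.67 (1.62 to 1.73) per Mb, so the order of the values turned. The ratio of the densities was 1.48 with all knockout peaks, 2.87 with those scoring at least 100 and 2.32 with chains of gaps up to 25 kb. It was 1.27 with gaps up to 100 kb, 1.38 with chains of peaks scoring at least 100 and 1.08 (0.847 to 1.35) with chains of at least 10 peaks. The dense groups were left in for all of these. Of the knockout peaks scoring at least 100, 27 lay in chain spans with the dense groups and 15 without. Only leaving out the dense groups turned its direction, to 0.919 (0.755 to 1.11). In 378 of the 469 chains no knockout peak lay anywhere in the span. The median span was only 121 kb, and at 1.72 knockout peaks per Mb most stretches of that length would hold none.

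Per length of wild-type peak, chain peaks held fewer knockout peaks than single peaks. Wild-type peaks covered 18.1% of the chain spans but far less of the length outside, where 2314 of 2338 Mb held none. The following shares therefore stand on unlike coverage. The share of knockout peaks that lay on a wild-type peak was higher in chain spans, at 67.0% (124 of 185), or 45.5% (51 of 112) without the dense groups, against 19.1% (767 of 4015) outside. On single wild-type peaks of at most 5 kb there were 34.7 knockout peak centres per Mb of peak (31.6 to 38.0), against 1.404 per Mb (1.36 to 1.45) away from all wild-type peaks and chain spans. On chain peaks of at most 5 kb there were 4.18 per Mb (3.08 to 5.54, 48 centres), against 1.02 (0.782 to 1.31) in the gaps between chain peaks, a density below that of the genome away from wild-type peaks. Groups of 2 to 4 lay in between, at 22.1 per Mb. Chain peaks were thus richer in knockout peaks than the gaps beside them, though far less so than single peaks were relative to their surroundings.

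The profile around peak centres showed the same. In the central 1 kb around single peaks of at most 5 kb there were 392 knockout centres for 6280 peaks (62.4 per Mb), and around chain peaks 38 for 4697 (8.09 per Mb). From 4.5 kb outwards, to the end of the profile, the means were 1.61 and 1.36 per Mb. The mean of single peaks takes in the shoulder described next, so these means do not give the order further out. Single peaks also had a shoulder about 5 to 6 kb away on both sides, reaching 6.53 per Mb. The chain profile stayed at or below 2.13 per Mb from 5 to 9 kb. Its highest flank bin, 10 kb away on 1 side, held 13 centres (2.77 per Mb). Knockout peaks in dense groups were left out of the profile, and chain peaks share their flanks with neighbours, so 1 knockout peak can count several times.

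**Figure D4:**
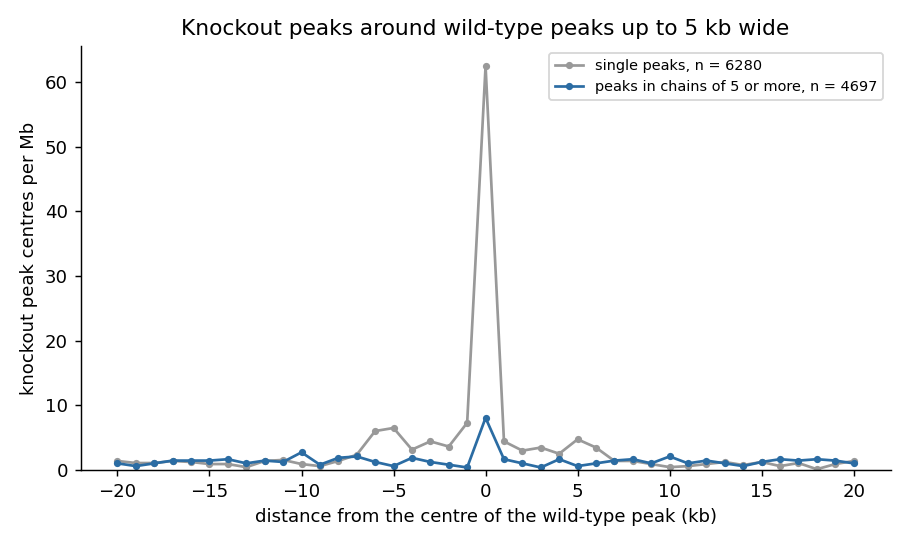
Knockout peak centres per Mb (y axis) in 1 kb bins by distance from the centre of the wild-type peak (kb, x axis), for 6280 single peaks and 4697 peaks in chains of 5 or more, all at most 5 kb wide. The central bin reaches 62.4 per Mb for single peaks and 8.09 for chain peaks.

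Scores of the knockout peaks are comparable only within the knockout list. Pooled over place, they were at least as high in chain spans as elsewhere. The median was 61.99 (58.2 to 65.1) for the 185 in chain spans and 58.3 (57.8 to 58.8) for the 4015 outside. Without the dense groups on both sides it was 58.2 (55.7 to 62.6) for 112 and 58.2 (57.7 to 58.6) for 3913. Scores of at least 100 were more frequent in chain spans, at 14.6% (9.84 to 20.5%) against 7.52% (6.72 to 8.38%), and without the dense groups at 13.4% (7.69 to 21.1%) against 7.28% (6.49 to 8.14%), where the intervals overlap. Split by place, the medians were slightly lower in chain spans. On wild-type peaks they were 64.9 (61.7 to 67.2) for 124 knockout peaks in chain spans and 65.3 (63.6 to 67.2) for 767 outside. Scores of at least 100 made up 14.5% (8.84 to 22.0%) and 21.1% (18.3 to 24.2%) of these, and the intervals overlap. The dense groups were not left out of this split. They held 73 of the 124 and 16 of the 767, so the values for chain spans mostly describe those groups. Off wild-type peaks the medians were 55.7 for 61 knockout peaks in chains and 57.3 elsewhere, with 14.8% and 4.31% scoring at least 100.

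Members and other wild-type peaks without an overlap lay at similar distances from the knockout list. The median distance to the nearest knockout peak was 281 kb (267 to 294 kb, interquartile range 117 to 559 kb), against 260 kb (252 to 268 kb) for the peaks with the same limits outside chains. Close by, members had fewer. A knockout peak lay within 10 kb of 120 members (2.69%, 2.23 to 3.21%) and of 4.57% (4.17 to 5.01%) outside, where 8.37% of all wild-type peaks, overlapping ones included, had one. Within 50 kb the shares were 11.9% (10.98 to 12.9%) and 14.1% (13.4 to 14.8%), beside 17.3% of all wild-type peaks. There were 6 members with a knockout peak within 1 kb. The nearest, on chromosome 19 from 6557851 to 6559642 (score 109.81), was 85 bp from one. The farthest were 3 peaks of a 5-peak chain near the distal end of chromosome 7, the outermost from 151655264 to 151657639 (score 65.66), 2251 kb from any knockout peak. Neighbouring members share their distance to the knockout list and are not independent.

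The members were concentrated in a small part of the genome. They occurred in 334 of 2480 windows of 1 Mb (13.5%), and 70 windows (2.82%) held 50% of them. For all wild-type peaks of these chromosomes, 404 windows (16.3%) were needed. Clustering is built into the rule, so this is a description of its extent. Chains also lay near other chains, with a median distance of 193 kb to the nearest one, and 343 of the 469 (73.1%) had another within 500 kb.

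Chromosomes differed several-fold in how many of their wild-type peaks were members. The share was highest on chromosomes 8 (45.1%, exact 95% interval 42.4 to 47.9%), 11 (44.0%, 41.1 to 47.0%) and 17 (43.7%, 40.1 to 47.4%), whose intervals overlap. It was lowest on chromosomes 13 (7.54%, 5.36 to 10.2%), 3 (7.96%), 1 (8.36%), 18 (9.22%) and 16 (10.3%), which also overlap each other. Chromosome 8 had 586 members in 46 chains (4.45 per Mb, counted to the last peak), while chromosome 1, the longest, had 76 in 10 chains (0.386 per Mb). Chromosome 11 had the most chains, 57, though its biggest held 37 peaks, against 97 on chromosome 10, which had 9 chains. The share of peaks in chains followed the density of wild-type peaks on the chromosome (Pearson's r 0.96, Spearman's rho 0.92 over 19 chromosomes of 1 library). Both measures contain the peak count, which ties them together.

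Scores of the members differed less between chromosomes than their numbers. The median ran from 81.6 on chromosome 9 to 103.41 on chromosome 8. Chromosome 8 also had the broadest members (median 2453 bp) and, after chromosome 10 (4.72 kb), the tightest chains (median gap 5.92 kb).

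Along the chromosome, members were most frequent at the distal end. Mouse chromosomes have their centromere at one end, and the called length of each was divided into 10 equal parts from that end. In the most distal part 1136 of 2553 wild-type peaks were members (44.5%, 42.6 to 46.4%), which is 25.4% of all members. The share was lowest in part 5 (14.0%, 12.1 to 16.0%). It was 22.8% in part 1 and 33.1% (30.8 to 35.4%) in part 2, so the profile was not a steady rise. Members of the most distal part came from 13 of the 19 chromosomes. The last 10 Mb held 924 members (20.7%) and 12.9% of all wild-type peaks of these chromosomes, while the first 10 Mb held 6.90% and 7.06%.

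**Figure D5:**
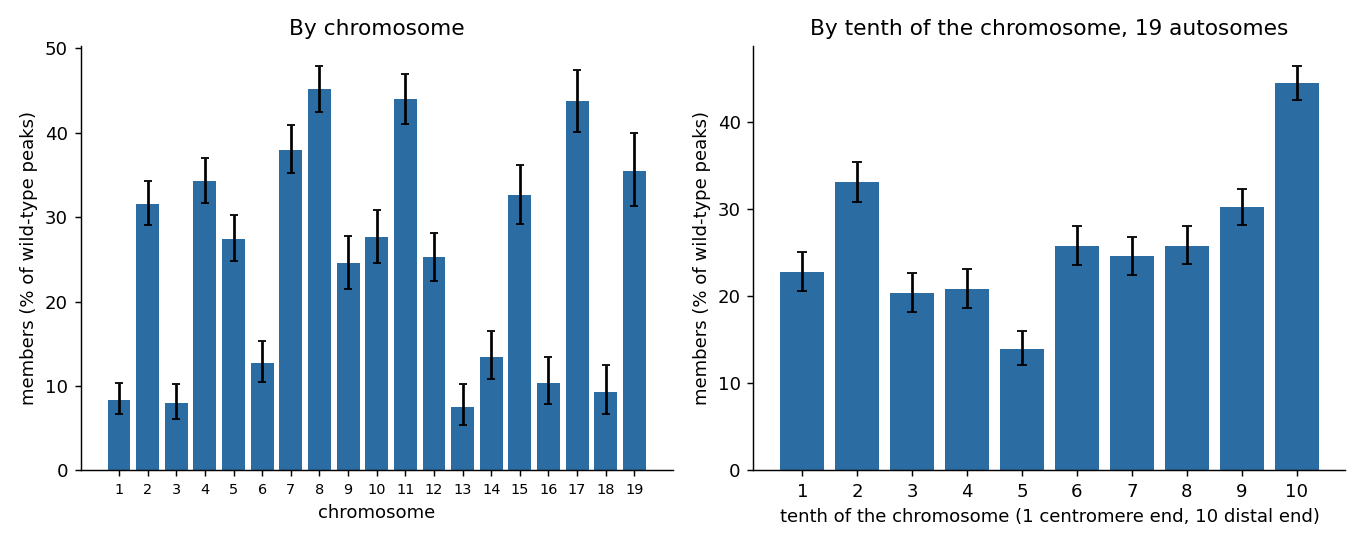
Members as a percentage of wild-type peaks (y axes) by chromosome (left) and by 10 equal parts of the called length of chromosomes 1 to 19 (right). Error bars are exact 95% binomial intervals, which cover counting error only. Chromosomes 8, 11 and 17 lie above 43%, and the most distal part reaches 44.5%.

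At the limits of the rule, peaks of nearly equal score or width fell on either side. The highest-scoring members were at 399.97 on chromosome 8, at 399.93 on chromosome 11 (60350559 to 60353435), at 399.74 on chromosome 15 (98673729 to 98677171), at 399.48 on chromosome 7 (16571536 to 16575479) and at 398.68 on chromosome 17 (35137101 to 35139380). Peaks just left out scored 400.12 (chromosome 10, 79432597 to 79437596, in the biggest chain), 402.83 and 402.91. By width, members reached 5000, 4989 and 4968 bp, and the nearest peaks left out measured 5023, 5024 and 5033 bp. Of the 4933 chain peaks, 277 failed the score limit, 236 the width limit and 52 the overlap limit, some more than one, and 40 failed by the overlap alone.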

How the data were processed

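Members and comparisons were chosen with earlier results of these data known. For each V5 library the authors deposited 1 peak list with chromosome, start, end, name and a score. MACS 1.4.2, Bowtie 0.12.8 and genome build mm9 are listed per the submitters' processing notes, with no roles stated. Which control and settings the peak caller had is not given in the sources used here, and it is not known that both lists were called alike. Knockout peaks had median widths of 145 bp in chain spans and 141 bp outside. Members had a median of 2274 bp and peaks with the same limits outside chains 2058 bp. Overlaps, densities and distances to knockout peaks therefore rest on lists of unlike peak width. The cause of this difference was not tested. The deposited score is used to rank and filter peaks within its own list. Per the labels' protocols, amplification ran for 17 cycles and fragments near 300 bp were isolated.

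Gaps run from the end of one peak to the start of the next, and printed positions are 1-based. Gene annotation and sequence of mm9 were not used here, so no gene is named. Shares carry exact (Clopper-Pearson) 95% intervals (a share of 0 also the limit of 3 counts), medians intervals from order statistics and densities exact Poisson intervals. A dense knockout group has at least 10 knockout peaks, each within 10 kb of the next. Named chains and peaks followed a fixed rule: most members, smallest median gap, highest median score, longest span, strongest and weakest members, and those at the limits or nearest to and farthest from a knockout peak, with chromosome 18 left out. The chain and overlap code was tested on simulated data. The software was Python 3.11.15, scipy 1.17.1, pandas 2.3.3, matplotlib 3.10.9 and numpy 2.4.6. Alternatives were other gaps, chain sizes, score and width limits and knockout lists.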

Additional observations from a re-analysis of the deposited data

How the results depend on the processing

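Of 84 alternative values, 37 stayed within the interval of the reported value or, for counts, within 1.5 times of it, 46 moved and 1 turned. Chain peaks stayed below outside peaks in shared share and members below outside peaks in median score under each alternative that gave both values. With chains built from wild-type peaks scoring at least 100, the intervals of these medians overlapped (147.7 to 156.9 and 155.8 to 160.6). The 4464 members became 2814 with gaps of at most 25 kb, 2656 with at least 10 peaks, 998 with chains built from wild-type peaks scoring at least 100 and 2891 at widths up to 2500 bp. The 469 chains became 160 with at least 10 peaks and 150 with scores of at least 100. With gaps of 25 kb, gaps of 100 kb, at least 10 peaks and scores of at least 100, in this order, the share of peaks in chains (30.8%) was 19.6, 45.6, 18.6 and 15.1%, the median score outside (100.5) was 98.2, 104.1, 98.0 and 158.4, the shared share outside (6.21%) was 5.55, 7.10, 5.44 and 7.75%, and the share of members on the chromosome with most members (13.1%, chromosome 8) was 16.9, 11.3, 16.8 and 23.3%. It was 11.5%, on chromosome 11, at widths up to 2500 bp. The shared share in chains (1.05%) was 1.66% with gaps of 100 kb and 1.48% with scores of at least 100. The median member score (90.7) was 93.3 with at least 10 peaks, 151.8 with scores of at least 100, 83.2 with scores below 200, 93.5 with no score limit and 71.4 at widths up to 2500 bp. The median outside was 88.6 with scores below 200 and 105.4 with no score limit. The same-side share of neighbours (52.0%) was 49.9% and the share of members within 50 kb of a knockout peak (11.9%) was 13.4% with scores of at least 100. With only knockout peaks scoring at least 100, the shared shares were 0.162% in chains and 1.36% outside, the share within 50 kb was 1.56%, and knockout peaks per Mb were 0.522 on chain peaks and 8.06 on single peaks. The ratio of knockout peak density inside to outside chain spans (1.48) was 2.32 with gaps of 25 kb and 1.27 with 100 kb. The ratio was 1.08 (0.847 to 1.35) with at least 10 peaks and 2.87 with knockout peaks scoring at least 100. Without the dense knockout groups it was 0.919 (0.755 to 1.11), which turned its direction. The densities per Mb on chain and single peaks with their alternatives, the dense groups, the limits on both sets and the weightings were chosen after seeing the data. The shared share outside was 5.49% within the score and width limits, 5.75% weighted by score and 5.71% weighted by chromosome. A stricter limit leaves fewer peaks; otherwise the cause was not tested. Depth is not given by the lists, which limits what a missing knockout peak can mean. No paired analysis was possible because there was 1 library for each genotype, and for that reason no replicate was left out.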
